A study of Mus musculus with 6 samples.

Results

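Cytosolic ribosomal proteins are the protein parts of the ribosome, which joins amino acids into protein in the cytoplasm. Their genes were taken from the arrays by symbol (Rpl or Rps followed by a digit, or Rplp), without the S6 kinase genes and without symbols marked as pseudogenes, and only from probe sets that name 1 gene. Each gene was represented by its brightest probe set over all 6 arrays. This gave 62 genes of the 19938 genes measured in all. Of the 62, 53 encode known proteins of the mouse ribosome, from a list of 76 whose symbols fit the rule. They were 33 in the large subunit and 20 in the small subunit. Ribosomal genes outside the rule, such as Rpsa and Fau, are taken up below. The other 9 symbols that the rule admitted were paralogs and related genes, among them Rps19bp1, which encodes a protein that binds Rps19 and is not a part of the ribosome. For 16 further ribosomal proteins, Rpl11 among them, the arrays carried only probe sets that name several genes, and 7 more are not named here.

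The cells were C2C12, a mouse myoblast line. One line, shPARP2, carried a PARP2-specific shRNA delivered by lentivirus, and its counterpart, scPARP2, carried a scrambled shRNA delivered in the same way. Both lines were kept under selection for the shRNA, so virus and selection were shared by the groups, and 1 line stood for each condition. Each line had 3 samples with 1 array each. Whether these came from separate cultures is not given in the labels or methods, and the p-values cover only the spread among these 6 samples, which can be technical. An equal mass of total RNA was labelled for each array, so all values are relative to the other RNA of the cells, and in bulk samples fewer cells of a type and less RNA per cell cannot be told apart.

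A ribosome holds 1 copy of nearly every one of these proteins, and the cell makes them in step with ribosomal RNA. Most of their mRNAs are abundant and begin with a C followed by a run of pyrimidines, the terminal oligopyrimidine or TOP start, through which mTOR signalling and Larp1 control their translation. Proteins made in excess of the others are degraded. When assembly fails, free Rpl5 and Rpl11 bind Mdm2 and stabilise p53.

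Because the TOP start is the best known shared feature of these genes, the bases around the annotated start were read for the genes below. RefSeq windows of 300 bases (assembly GRCm38.p6, 250 before to 50 after each annotated start) were at hand for 50 of the 62 genes, in 59 windows. Each line gives 15 bases before the start and 15 from it, on the strand of the gene, with capitals marking the run of pyrimidines that begins with C at the start. The first 4 genes passed the test in shPARP2 cells and hold such a run of at least 5 bases. They lie at chr11:114668565-114668594 (Rpl38, + strand), chr7:4792950-4792979 (Rpl28, + strand), chr7:141447636-141447665 (Rplp2, + strand) and chr2:180257364-180257393 (Rps21, + strand). Rps21 has a further annotated start, at chr2:180257434-180257463, without such a run.
Rpl38: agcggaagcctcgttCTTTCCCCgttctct
Rpl28: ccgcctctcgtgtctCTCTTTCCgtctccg
Rplp2: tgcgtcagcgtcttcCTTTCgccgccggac
Rps21: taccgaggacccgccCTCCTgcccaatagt
The genes of the next lines also passed the test but have no C at the annotated start, so no base is in capitals. They lie at chr8:123102335-123102364 (Rpl13, + strand) and chr7:109519180-109519209 (Rpl27a, + strand). Rpl37a and Rpl26, not printed here, also passed the test and have no C at the annotated start.
Rpl13: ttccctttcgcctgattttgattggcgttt
Rpl27a: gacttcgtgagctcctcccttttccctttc
The last lines are genes with the run that did not pass the test, at chr4:86857353-86857382 (Rps6, - strand) and chr9:120571502-120571531 (Rpl14, + strand).
Rps6: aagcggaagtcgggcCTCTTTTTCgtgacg
Rpl14: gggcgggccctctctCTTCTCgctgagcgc

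Parp2 mRNA was lower in the silenced line, where the log2 signal was 7.97 ± 0.15 (SD, n = 3 arrays) against 9.04 ± 0.10 (SD, n = 3 arrays) in the control line, or 47.6% of the control signal (limma, adjusted p = 0.00103). The median log2 signal of an array lay between 7.04 and 7.18. Of 8 myoblast markers, 7 were measured, none of them below the median signal, and Myf5, Chrna1, Cdh15 and Des were higher in shPARP2 cells. The summed log2 signal of the 7 was 69.96 to 70.1 on the scPARP2 arrays and 71.4 to 73.6 on the shPARP2 arrays. Myod1 did not pass the test and was lower on shPARP2 replicate 3 (8.89) than on any other array (9.79 to 10.19). Of the markers of other cell types, Lpl (1 of 5 measured adipocyte markers), Cd68 (1 of 5, macrophage or leukocyte) and Sox9 (1 of 3, osteoblast or chondrocyte) were lower in shPARP2 cells. The other markers of these lists did not pass, some of them with log2 fold changes above 0, and no epithelial or endothelial marker passed. Lpl and Sox9 were bright, at the 91.9th and 86.9th percentiles of mean signal. The part of these markers in the results below was not tested.

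Most ribosomal protein genes did not pass the test between the lines, and those that passed were lower in shPARP2 cells. Of the 62 genes, 10 fell past the test (limma, adjusted p under 0.05 over all probe sets), none rose, and 52 did not pass. Over all genes measured, 11.6% were lower and 12.4% were higher by the same test (24% in either direction), and among the 62 the share of lower genes, 16.1%, was not far from that background. Whether the ribosomal protein genes differ in this from other genes was not tested. The median log2 fold change of the 62 was -0.17, against -0.02 for all genes, and the middle of the distribution ran from -0.25 to -0.09 (quartiles). In all, 52 of the 62 had a log2 fold change below 0, where 55.1% of all genes did. For 40 of the 62, every shPARP2 array lay below every scPARP2 array, and for 3 (Rps2, Rps19bp1 and Rps27l) every shPARP2 array lay above. The background shares of genes without overlap were 21.4% lower and 20.7% higher. No ribosomal protein gene differed by 1.5-fold or more, the range being -0.55 to 0.20 on the log2 scale.

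How many genes pass depends on single arrays. Without scPARP2 replicate 1, 2 or 3, the count of lower genes was 4, 5 or 3 of 62 (6.45%, 8.06% and 4.84%), about the share of all genes lower in the same fits (6.78%, 6.42% and 6.61%). Without shPARP2 replicate 1 or 2 it was 7 or 10 (11.3% and 16.1%, against 8.11% and 13.6% of all genes). Without shPARP2 replicate 3 it was 21 (33.9%, against 10.8% of all genes). Rpl13, Rpl27a and Rpl38 passed whichever array was left out. The median of the 62 stayed between -0.18 and -0.16. Quantile normalization of the arrays brought the median to -0.11, with 15 genes lower, while leaving out dim probe sets, array weights and a trended and robust variance gave 20, 24 and 28 lower genes (33.3% of 60, 38.7% and 45.2% of 62), against 20.1%, 16.3% and 12.9% of all genes. At an adjusted p under 0.01, 4.84% of the 62 and 6.16% of all genes were lower.

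**Figure D1:**
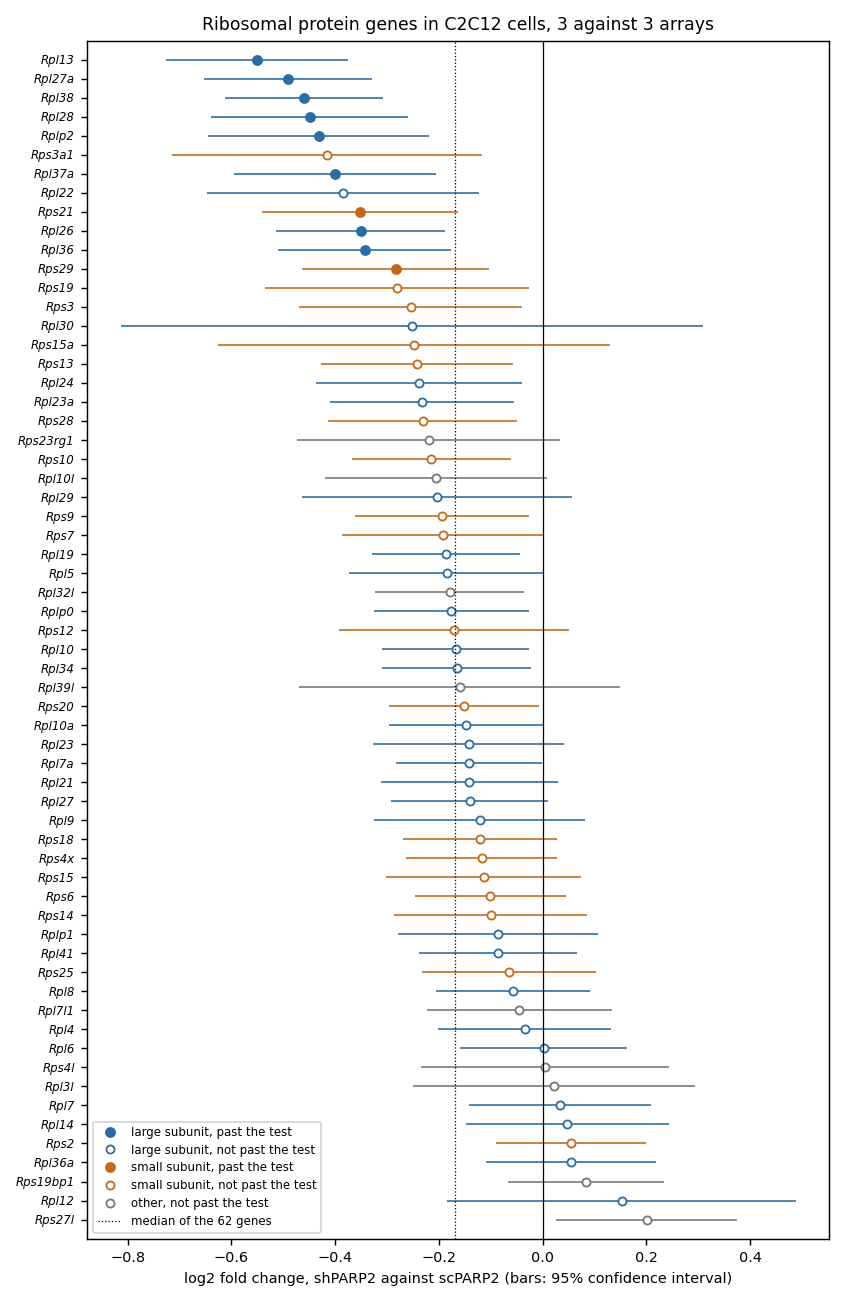
Log2 fold change of the 62 ribosomal protein genes between shPARP2 and scPARP2 cells (x axis) by gene (y axis), with 95% confidence intervals from limma, 3 arrays a line; filled points passed the test. The 10 genes that passed all lie left of 0, and the dotted line marks the median of -0.17.

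The large subunit held 8 of the 10 lower genes, which is 24.2% of its 33 genes. In the small subunit 2 of 20 genes were lower (10%), and among all genes 11.6%. The difference between the subunits was not tested. Rpl13, a protein of the large subunit, had the greatest difference. Its log2 signal was 11.68, 11.66 and 11.67 on the scPARP2 arrays and 11.16, 11.01 and 11.19 on the shPARP2 arrays. All shPARP2 arrays lay well below the scPARP2 arrays, which were nearly equal. The log2 fold change of -0.55 (SE 0.07, adjusted p = 0.00361, limma) leaves 68.2% of the control signal. Rpl27a, also of the large subunit, read 12.52, 12.43 and 12.53 in scPARP2 and 12.02, 12.05 and 11.94 in shPARP2 cells. The lines were again apart, with a log2 fold change of -0.49 (SE 0.07, adjusted p = 0.00408, limma).

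Rpl38 is the large-subunit protein known from mouse embryos for its part in the translation of Hox mRNAs. It read 12.73, 12.63 and 12.69 in scPARP2 and 12.19, 12.25 and 12.23 in shPARP2 cells, without overlap. Its log2 fold change was -0.46 (SE 0.06, adjusted p = 0.00419, limma), or 72.7% of the control signal. Rpl28 read 13.53, 13.52 and 13.52 in scPARP2 and 13.11, 13.17 and 12.94 in shPARP2 cells, with shPARP2 replicate 3 the lowest of the 6 arrays. Its log2 fold change was -0.45 (SE 0.08, adjusted p = 0.0104, limma), and without scPARP2 replicate 1 or 3 it missed the threshold (adjusted p = 0.051 in both).

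Rpl37a, Rpl26 and Rpl36 were lower by less. Rpl37a read 12.78, 12.68 and 12.71 in scPARP2 and 12.38, 12.39 and 12.19 in shPARP2 cells, with a log2 fold change of -0.40 (adjusted p = 0.0173, limma). Rpl26, which sits near the exit of the peptide tunnel, read 9.25, 9.33 and 9.41 in scPARP2 and 8.98, 8.96 and 8.997 in shPARP2 cells, with a log2 fold change of -0.35 (adjusted p = 0.0147, limma). In Rpl26, as in Rpl38, the shPARP2 arrays were closer to each other than the scPARP2 arrays were. Rpl36 read 12.89, 12.82 and 12.84 in scPARP2 and 12.51, 12.43 and 12.58 in shPARP2 cells, with a log2 fold change of -0.34 (adjusted p = 0.0175, limma). None of the 3 genes overlapped between the lines. Rpl37a and Rpl36 missed the threshold without any 1 of the scPARP2 arrays, Rpl36 also without shPARP2 replicate 1, and Rpl26 without scPARP2 replicate 2 or 3.

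Rplp0, Rplp1 and Rplp2 form the stalk of the large subunit, which recruits the elongation factors. Of these, Rplp2 passed the test. It read 7.49, 7.35 and 7.44 in scPARP2 and 7.11, 6.86 and 7.01 in shPARP2 cells, with a log2 fold change of -0.43 (SE 0.09, adjusted p = 0.0183, limma). Its probe set was dim for this gene group, at the 51.5th percentile of mean signal over all probe sets, and it missed the threshold without scPARP2 replicate 1 or 3. Rplp0, known as 36B4, was averaged with cyclophilin as the RT-qPCR reference of the study. It read 13.71, 13.78 and 13.75 in scPARP2 and 13.53, 13.57 and 13.61 in shPARP2 cells. The lines did not overlap, but the log2 fold change of -0.18 (95% confidence interval -0.33 to -0.03) did not pass after adjustment (adjusted p = 0.110, limma). Rplp0 did pass under a trended and robust variance, with array weights and among probe sets above the 40th percentile of mean signal. Rplp1 read 13.62, 13.61 and 13.60 in scPARP2 and 13.59, 13.39 and 13.60 in shPARP2 cells, with a log2 fold change of -0.09 (adjusted p = 0.562, limma), and shPARP2 replicates 1 and 3 lay close to the scPARP2 arrays. A dimmer probe set of Rplp1 read 12.57, 12.52 and 12.54 in scPARP2 and 12.37, 12.29 and 12.44 in shPARP2 cells, without overlap. Its log2 fold change was -0.17 and did not pass (adjusted p = 0.143, limma).

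Among the 20 genes of the small subunit, Rps21 and Rps29 were lower. Rps21 read 10.83, 10.80 and 10.84 in scPARP2 and 10.45, 10.37 and 10.60 in shPARP2 cells, with a log2 fold change of -0.35 (SE 0.08, adjusted p = 0.0247, limma). Rps29, one of the genes mutated in Diamond-Blackfan anaemia, read 11.84, 11.79 and 11.84 in scPARP2 and 11.51, 11.45 and 11.65 in shPARP2 cells, with a log2 fold change of -0.28 (SE 0.08, adjusted p = 0.0452, limma). Neither gene overlapped between the lines, and in both shPARP2 replicate 3 lay nearest to the scPARP2 arrays. Both missed the threshold without any 1 of the scPARP2 arrays or without shPARP2 replicate 1, and Rps29 also without shPARP2 replicate 2. The small subunit had a median log2 fold change of -0.19, with 19 of 20 genes below 0, and the large subunit one of -0.17, with 28 of 33 below 0. Rps6, the protein that the S6 kinases phosphorylate downstream of mTOR, read 13.64, 13.62 and 13.63 in scPARP2 and 13.49, 13.56 and 13.55 in shPARP2 cells, with a log2 fold change of -0.10 (adjusted p = 0.343, limma) without overlap.

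**Figure D2:**
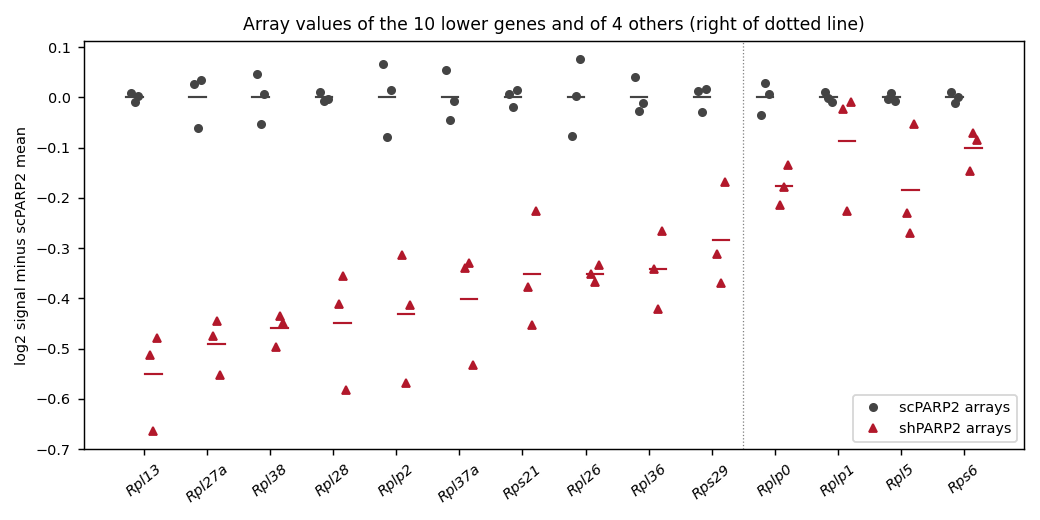
Log2 signal of each array minus the mean of the 3 scPARP2 arrays (y axis) for the 10 lower genes and, right of the dotted line, Rplp0, Rplp1, Rpl5 and Rps6; circles are scPARP2 arrays, triangles shPARP2 arrays and short lines the group means. In the 10 lower genes every triangle lies below every circle.

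Among the genes just outside the threshold were Rpl22, of the large subunit, and Rps10 and Rps3a1, of the small subunit. Rpl22 read 10.25, 10.30 and 10.26 in scPARP2 and 9.71, 9.84 and 10.11 in shPARP2 cells (log2 fold change -0.39, adjusted p = 0.0559, limma). Rps3a1 read 11.86, 11.95 and 11.93 in scPARP2 and 11.33, 11.39 and 11.77 in shPARP2 cells (log2 fold change -0.42, adjusted p = 0.0667, limma). In Rpl22 and Rps3a1 shPARP2 replicate 3 lay apart from the other shPARP2 arrays, toward scPARP2. Rps10 read 13.26, 13.22 and 13.23 in scPARP2 and 12.97, 13.08 and 13.02 in shPARP2 cells (log2 fold change -0.21, adjusted p = 0.0659, limma). In Rps10 replicate 3 lay between the other shPARP2 arrays. Rpl30 read 9.97, 10.05 and 9.86 in scPARP2 and 9.44, 9.42 and 10.27 in shPARP2 cells, so that here replicate 3 lay above all scPARP2 arrays. Rpl22, Rps3a1 and Rpl30, and Rpl12 below, were named after their values were seen. Rpl5, which with Rpl11 carries the smallest ribosomal RNA of the large subunit and binds Mdm2, read 12.82, 12.83 and 12.81 in scPARP2 and 12.59, 12.55 and 12.77 in shPARP2 cells (log2 fold change -0.19, adjusted p = 0.173, limma), with no overlap and replicate 3 again nearest to scPARP2. Mdm2 itself was higher in shPARP2 cells, with a log2 fold change of 0.60 (adjusted p = 0.00651, limma). A link between Mdm2 and the ribosomal protein genes was not tested. Trp53, the gene of p53, and Cdkn1a were listed with Mdm2 but not measured.

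The pattern of shPARP2 replicate 3 was seen in many but not all genes of the group. Taken against the scPARP2 mean of each gene, the median of the 62 genes was -0.18 on shPARP2 replicate 1, -0.19 on replicate 2 and -0.11 on replicate 3, while the median of all genes was 0.01, -0.08 and 0.01. Replicate 3 was the highest shPARP2 array in 38 of the 62 genes and the lowest in 11. Over all genes it was the highest in 39.2%. Every shPARP2 array had more genes below than above the scPARP2 mean, 55, 56 and 47 of 62. The spread between arrays was also greater in the silenced line, with a median SD per gene of 0.10 against 0.02 in scPARP2 cells, and of 0.12 against 0.06 over all genes.

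**Figure D3:**
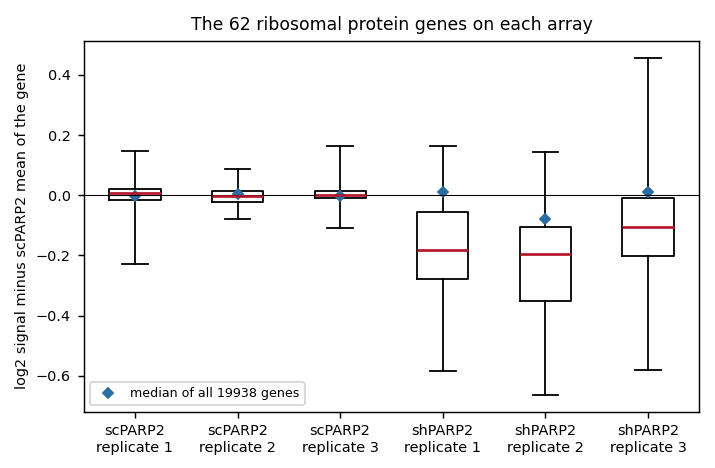
Log2 signal minus the scPARP2 mean of the gene (y axis) for the 62 ribosomal protein genes on each of the 6 arrays (x axis); boxes span the quartiles, red lines are medians, whiskers reach the lowest and highest gene, and diamonds are medians of all 19938 genes. The 3 shPARP2 medians lie at -0.18, -0.19 and -0.11.

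The 9 symbols outside the set of known ribosomal proteins had a median log2 fold change of -0.05, with 5 of 9 below 0 and none past the test. The difference from the 53 ribosomal proteins, whose median was -0.18, was not tested. Rps27l, a paralog of Rps27 that p53 is known to induce, had the highest log2 fold change of the 62. It read 12.01, 12.02 and 12.03 in scPARP2 and 12.18, 12.15 and 12.33 in shPARP2 cells, with a log2 fold change of 0.20 (95% confidence interval 0.03 to 0.38) that did not pass after adjustment (adjusted p = 0.120, limma) though the lines did not overlap. Rps19bp1, also known as an activator of SIRT1, was at 0.08, Rpl3l, the paralog of Rpl3 in striated muscle, at 0.02 and Rps4l at 0.00 on the same log2 scale.

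Rpl7l1, a factor that resembles Rpl7, had a log2 fold change of -0.05, and Rpl7 one of 0.03 (adjusted p = 0.825, limma). Rpl10l, the paralog of Rpl10 known from testis, had a log2 fold change of -0.20 (adjusted p = 0.186), and Rpl10 one of -0.17 (adjusted p = 0.108, limma). Rpl10l, Rpl39l, Rpl3l and Rps23rg1 were dim, and a dim probe set holds a larger part of background. Rps23rg1, a retrocopy of Rps23, had a log2 fold change of -0.22, Rpl32l one of -0.18 and Rpl39l, whose probe set gave the lowest signal of the group, one of -0.16. Rpl10 gave the highest signal of the group. Among the 53 listed ribosomal proteins, 6 were above 0, from Rpl6 near 0.00 to Rpl12 at 0.15. None of the 6 passed the test.

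Processed copies of ribosomal protein genes are scattered through the genome, and many of these genes have more than 1 probe set. The 62 genes had 214 single-gene probe sets, with up to 14 for Rps12, and 42 of the 62 have copies listed in RefSeq as pseudogenes. Such probe sets share sequence, some gave identical values on every array, and they are not independent measurements. Transcripts of a gene and of its copies may not be separated, so the values of single genes are uncertain to that extent. Of the 214, 60 were lower and none was higher in shPARP2 cells, where 9.14% of all 35556 probe sets were lower and 9.41% higher. Genes with many probe sets weigh more in this count.

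Of the 10 lower genes, 7 had several probe sets, and in 6 of these every probe set was lower. These were Rpl13 (9 of 9, log2 fold changes from -0.56 to -0.47), Rpl27a (9 of 9, -0.53 to -0.46), Rpl28 (5 of 5, -0.48 to -0.45), Rpl36 (9 of 9, -0.36 to -0.30), Rpl38 (4 of 4, -0.52 to -0.37) and Rps29 (4 of 4, -0.41 to -0.28). The second probe set of Rps21 had a log2 fold change of -0.38 and did not pass (adjusted p = 0.0739, limma). In 5 genes whose brightest probe set did not pass, a dimmer one did.

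These were Rpl19, a large-subunit protein widely used as a reference gene, with 6 of 7 probe sets lower (-0.27 to -0.19), Rpl21 with 5 of 9 (-0.28 to -0.14), Rps28 with 3 of 7 (-0.36 to -0.23), Rpl7a with 1 of 3 (-0.31 to -0.14) and Rps10 with 1 of 3 (-0.27 to -0.20). In Rpl19, Rpl21, Rps28 and Rpl7a the brightest probe set had the smallest difference of its gene. With the mean of all single-gene probe sets in place of the brightest, 20 genes were lower, against 14.3% of all genes by that summary. Across the 53 ribosomal proteins, the log2 fold change and the mean log2 signal had a Pearson's r of 0.27 and a Spearman's rho of 0.40, across genes that share arrays and, in part, probe sequence. Over all 62 genes r was 0.03 and rho 0.20. Whether bright probe sets understate differences was not tested.

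**Figure D4:**
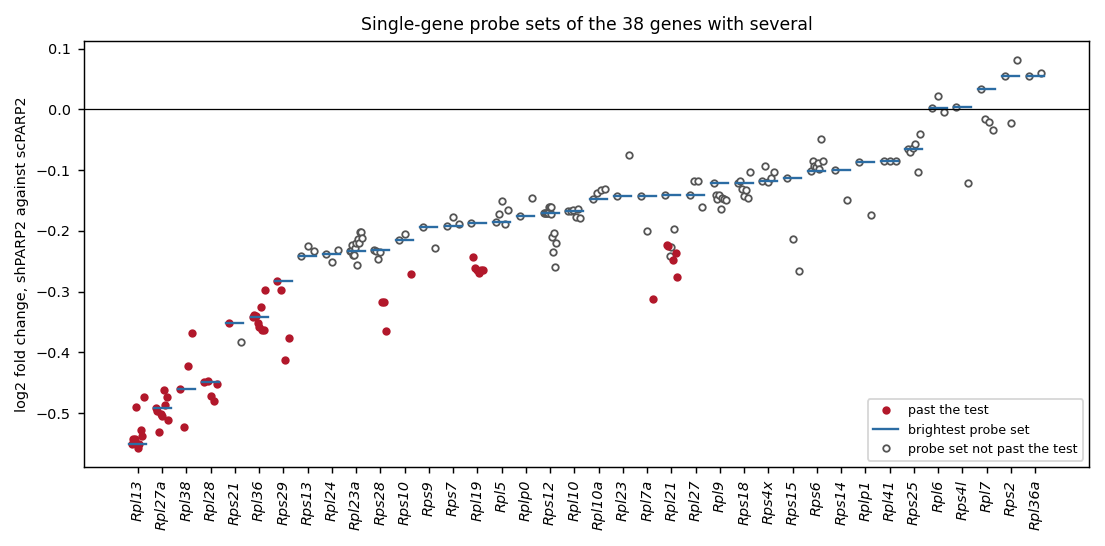
Log2 fold change (y axis) of every single-gene probe set of the 38 genes with several (x axis, ordered by the brightest probe set, marked with a blue line); filled points passed the test. All points of Rpl13, Rpl27a, Rpl38, Rpl28, Rpl36 and Rps29 are filled, and no filled point lies above 0.

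The TOP start and common promoter motifs were counted in the RefSeq windows. A C at the annotated start followed by at least 4 pyrimidines was found in 10 of 59 windows of ribosomal protein genes (16.9%) and in 2.51% of all 32851 windows. Among the lower genes it was found in 4 of 9 windows, from 8 genes with a window, and among the genes that did not pass in 6 of 50. The count depends on the annotated base, and no start site was measured here. The printed sequence of Rpl27a holds a run of pyrimidines that does not begin with a C at the annotated start. In the 21263 windows of protein-coding genes it was found in 2.21%. CCGGAAG, bound by ETS factors such as Gabpa and searched on both strands, was found in 32.2% of the windows of these genes, in 11.6% of the windows of protein-coding genes and in 8.86% of all windows. In the same order GGGCGG, bound by Sp1, was found in 55.9%, 46.2% and 35.7%, AAGATGGC, bound by Yy1, in 5.08%, 3.05% and 2.75%, and TATAAA in 10.2%, 12.6% and 13.6%, each on both strands. The median number of CpG in a window was 21, 13 and 7, and the shares were not adjusted for this difference. A match is a match of letters and shows no binding.

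Other genes of the translation machinery were counted in lists of the same kind. Of the ribosomal genes outside the symbol rule, Rpsa (log2 fold change -0.12, adjusted p = 0.362, limma) and Fau (0.08, adjusted p = 0.511, limma) were measured, of 4 in the list, and neither passed. Of 86 factors that assemble ribosomes and process ribosomal RNA 84 were measured. Of these 30 were higher, none was lower and 54 did not pass, the median log2 fold change was 0.20, and 71 of 84 were above 0. By the same test 12.4% of all genes were higher, and the difference from the ribosomal proteins was not tested. Riok3, an atypical kinase of small-subunit maturation, read 9.28, 9.32 and 9.24 in scPARP2 and 10.36, 10.38 and 10.50 in shPARP2 cells, with all shPARP2 arrays above (log2 fold change 1.13, SE 0.07, adjusted p = 0.000252, limma). Ddx10, an RNA helicase of ribosomal RNA processing, had a log2 fold change of 0.87 (adjusted p = 0.00334, limma), and Rsl24d1, which holds the place of Rpl24 in precursors of the large subunit, one of 0.85 (adjusted p = 0.00228, limma). Rpl24 itself was at -0.24.

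Factors that act on the finished ribosome were found in both directions, read here and in the next lists against 12.4% higher and 11.6% lower among all genes. Of 36 initiation factors 30 were measured, with 7 higher, 6 lower and a median log2 fold change of 0.05. The greatest differences were those of Eif5b, which joins the subunits (0.56, adjusted p = 0.0195, limma), Eif2s2, the beta subunit of eIF2 (0.55, adjusted p = 0.00351, limma), and Eif2b1, of the exchange factor of eIF2 (0.51, adjusted p = 0.00436, limma). The lower factors included Eif3d (-0.37), Eif3h (-0.33) and Eif3f (-0.30), subunits of eIF3, and Pabpc1 (-0.26), the poly(A)-binding protein. Eif3a, also a subunit of eIF3, was higher (0.42, adjusted p = 0.0403, limma), and the other measured subunits of eIF3 did not pass. Of 17 elongation and termination factors 16 were measured, with 3 higher and 2 lower. Abce1, which splits ribosomes for reuse, had a log2 fold change of 0.97 (adjusted p = 0.000332, limma), Etf1, the release factor, one of 0.64 (adjusted p = 0.00113, limma), and Eef1d, of the exchange factor of elongation, one of -0.45 (adjusted p = 0.0167, limma).

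RNA polymerase I, which makes the ribosomal RNA precursor, and its factors were listed under 20 symbols, some of them second names of the same gene. All 17 genes were measured, with 1 higher, 2 lower and a median log2 fold change of -0.02. Polr1c, a subunit shared with RNA polymerase III, had one of -0.57 (adjusted p = 0.00436, limma), Ttf1, the termination factor, -0.30 (adjusted p = 0.0371, limma) and Twistnb, a polymerase I subunit, 0.41 (adjusted p = 0.0261, limma). Genes that control ribosome production with growth were listed under 28 symbols, Zfp692 and its second name Znf692 among them. Of the 22 genes measured, 8 were higher and 2 lower. Rheb, which activates mTOR, read 10.48, 10.58 and 10.58 in scPARP2 and 11.58, 11.79 and 11.81 in shPARP2 cells, all higher (log2 fold change 1.18, SE 0.09, adjusted p = 0.000438, limma). Pdcd4, an inhibitor of the helicase eIF4A (-0.75, adjusted p = 0.00234, limma), and Eif4ebp2, which binds eIF4E and blocks it (-0.66, adjusted p = 0.00521, limma), were lower. Gabpa (0.49), Gabpb1 (0.56) and Yy1 (0.48), whose motifs were counted above, were among the higher genes, with Mtor (0.27), Max (0.30) and Larp4 (0.33). Sp1, whose motif was also counted (0.10, adjusted p = 0.385, limma), and Larp1 (0.11, adjusted p = 0.297, limma) did not pass.

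The proteins of the mitochondrial ribosome are a separate gene group. Of 77 genes 13 were lower (16.9%) and 5 higher (6.49%), against 11.6% and 12.4% of all genes, with log2 fold changes from -0.98 to 0.64 and a median of -0.09, where the 62 cytosolic genes ran from -0.55 to 0.20. The difference between the gene groups was not tested.

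**Figure D5:**
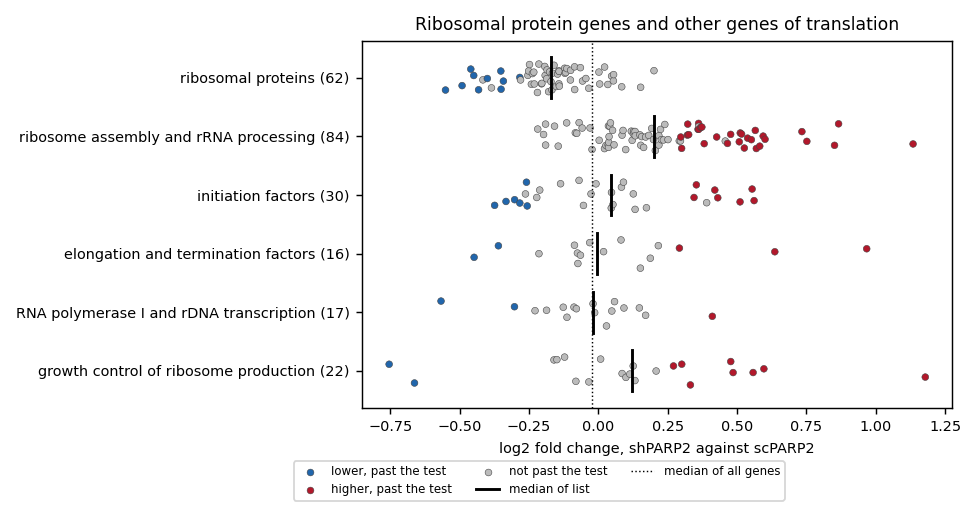
Log2 fold change (x axis) of the 62 ribosomal protein genes and of 5 lists of other translation genes (y axis, number measured in parentheses; points are spread vertically for legibility); blue points were lower and red points higher past the test, black bars are list medians and the dotted line is the median of all genes. The ribosomal proteins lie mostly left of 0, with a median of -0.17, and the assembly factors mostly right, with a median of 0.20.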

How the data were processed

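Total RNA of 3 scPARP2 and 3 shPARP2 C2C12 samples had been hybridised to Affymetrix Mouse Gene 1.0 ST arrays, 1 per sample. The deposited table holds log2 values of 35556 probe sets, from 1.27 to 14.6, made by the authors with RMA per the submitters' processing notes. No source used here gives the software version or the array library. RMA scales arrays toward a common distribution, so a change shared by most genes would not be seen. Every value column matched a sample. Per the platform annotation, 21789 probe sets name 1 gene, 1621 several, and 12146 are not named here.

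All probe sets were fitted with lmFit and eBayes of limma 3.58.1 (R 4.3.3) without a covariate, which is the tool of the study's methods. Adjusted p-values are those of Benjamini and Hochberg over every probe set, with a threshold of 0.05. Fold changes are on the log2 scale as shPARP2 minus scPARP2, errors are moderated standard errors, and intervals are at 95%. An array gives no read depth, and the number of arrays limits the precision. The fit was tested on simulated data. Tables and figures were made with Python 3.11.15, pandas 2.3.3 and matplotlib 3.10.9. Promoter windows came from RefSeq and were read for letters only.

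The members and gene lists were chosen with earlier results of these data known. Genes named are those past the test, the stalk proteins, Rpl5, Rps6, paralogs and other symbols the rule admitted, the highest and lowest signal, genes whose probe sets fell on different sides of the threshold, and from each list at most 3 genes past the test, by size of change, or the 2 of lowest p if none passed. Outside this rule, Rpl12, Rpl14, Rpl22, Rpl24, Rpl30, Rps2 and Rps3a1, the further genes of the translation lists, Mdm2 among them, and the marker genes were named after their values were seen. Alternatives covered normalization, dim probe sets, the probe sets tested, variance model, array weights, replicate number as a block, thresholds, gene summary, membership and leaving out each array in turn.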

Additional observations from a re-analysis of the deposited data

How the results depend on the processing

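The count of lower ribosomal protein genes depended on the setting. With the share of all genes lower at the same setting in parentheses, the 10 lower genes (11.6%) became 20 with dim probe sets left out (20.1%), 16 with single-gene probe sets only (14.3%), 28 under a trended and robust variance (12.9%), 24 with array weights (16.3%), 20 with the mean of the probe sets of a gene (14.3%), 3 at an adjusted p under 0.01 (6.16%), 0 at a change of at least 1.5-fold (4.82%), 27 at an unadjusted p under 0.05 (17.4%) and 52 by sign alone (55.1%). Of the 62 genes, the 3 at an adjusted p under 0.01 are 4.84%. The count of higher genes became 1 under a trended and robust variance and at an unadjusted p under 0.05, and 10 by sign alone. Of all genes, 14% were higher under that variance model and 17.4% at that unadjusted p. The median log2 fold change moved from -0.17 to -0.11 under quantile normalization, with 15 genes lower (12.3%), and was -0.14 under cyclic loess, with 11 (11.7%). Leaving out 1 array gave 3 to 21 lower and 0 higher genes and medians from -0.18 to -0.16.

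The labels do not say whether the replicate numbers pair the samples. The deviations of samples of the same number had correlations of -0.05, 0.09 and 0.01. Those of different numbers ran from -0.10 to 0.09, so these values cannot decide whether the samples were paired. With the replicate block, 6 ribosomal protein genes were lower (9.68%, against 8.33% of all genes), and Rpl26, Rpl36, Rps21 and Rps29 were lost. Of all genes, 8.98% were higher in that fit. The block also left 18 higher assembly factors of 30, 5 higher growth control genes of 8, 1 lower initiation factor of 6, 1 lower elongation factor of 2, and 0 higher and 1 lower gene of RNA polymerase I of 1 and 2.

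For the translation lists, at an adjusted p under 0.01 there were 18 higher assembly factors, 2 higher and 1 lower initiation factors, 0 lower elongation factors, 0 higher and 1 lower genes of polymerase I and 2 higher growth control genes. At 1.5-fold or more these were 7, 0, 0, 0, 0, 0 and 2 in the same order. Among all genes, 6.78% were higher and 6.16% lower at an adjusted p under 0.01, and 5.27% and 4.82% at 1.5-fold or more. Centring left 3 lower initiation factors and 1 lower gene of polymerase I, and leaving out dim probe sets left 1 lower elongation factor. In these fits 8.73% and 20.1% of all genes were lower. Array weights and an unadjusted p each gave 4 lower assembly factors, where 16.3% and 17.4% of all genes were lower. Leaving out 1 array gave 17 to 28 higher and 0 to 1 lower assembly factors, 2 to 8 higher and 0 to 7 lower initiation factors, 2 to 3 higher and 0 to 3 lower elongation factors, 0 to 1 higher and 1 to 2 lower genes of polymerase I, and 2 to 8 higher and 2 lower growth control genes. In the fits without 1 array, 6.97% to 12.3% of all genes were higher and 6.42% to 13.6% lower. No other alternative moved a count of calls by over 1.5 times. The cause of these changes was not tested.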

Other observations

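Beside the single-gene probe sets, 239 probe sets listed a ribosomal protein gene together with other genes and were left out of the counts above, since their signal cannot be given to 1 gene. Of these 48 were lower and none was higher in shPARP2 cells (limma, adjusted p under 0.05), their median log2 fold change was -0.19, and 226 of them were below 0. Over all 35556 probe sets, 9.14% were lower, 9.41% were higher and 55.2% were below 0. The log2 fold changes of the 239 probe sets ran from -0.87 to 0.36. Many list genes counted above, so they are no independent measurement.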
